A study of Mus musculus with 12 samples.

Results

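The genes described here are the major histocompatibility complex (MHC) genes of the mouse H2 region and the partner genes of antigen presentation. They were chosen by symbol, as every probe whose gene symbol starts with H2- or is Cd74, B2m, Tap1, Tap2, Tapbp, Ciita, Psmb8 or Psmb9, which gave 82 of the 45281 probes on the arrays, for 48 genes. Of these probes, 51 belonged to 29 class I genes, 16 to 10 class II genes, 10 to 6 partner genes of class I, and 4 to the class II partners Cd74 and Ciita. The last probe was that of H2-Ke6, a dehydrogenase gene named for its place beside H2-K, which encodes no MHC molecule.

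Transcripts of 12 medulloblastomas of the Sonic Hedgehog (SHH) subgroup, 4 in each of 3 groups, were measured on Illumina BeadChips. The A1G metastatic and A1G primary tumours came from Math1-cre;A1G;Ptch1+/- mice, and the tumours called Ptch1het came from Ptch1+/- mice, so that every group carried the Ptch1+/- genotype. Math1-cre places Cre recombinase under the enhancer of Math1 (Atoh1), which is active in cerebellar granule neuron progenitors. The labels do not expand A1G, and they give neither the age and strain (and so the H2 haplotype) of the mice nor the site of the metastases. For A1G metastatic replicates 2 and 3 the genotype entry names the same alleles but adds that the sample is a metastatic tumour, which the entry for replicates 1 and 4 does not. Nothing in them says that the replicates of a group were separate animals, so the p-values measure the spread between these samples.

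MHC class I molecules are surface proteins that show peptides from inside the cell to CD8 T cells. Each is a heavy chain, encoded at H2-K, H2-D or one of the less variable Q, T and M genes, paired with beta-2 microglobulin (B2m). The immunoproteasome subunits Psmb8 and Psmb9 help to cut the peptides, Tap1 and Tap2 form the transporter that carries them into the endoplasmic reticulum, and tapasin (Tapbp) helps to load them. Class II molecules show peptides from outside the cell to CD4 T cells, and are made mostly by dendritic cells, B cells, macrophages and activated microglia. Their alpha and beta chains are encoded by H2-Aa and H2-Ab1 (I-A) and by H2-Ea and H2-Eb1 (I-E). The invariant chain Cd74 guards their peptide groove, H2-DM exchanges its remnant for a peptide, H2-O restrains H2-DM, and Ciita switches the class II genes on.

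Class II genes share promoter elements called the X and Y boxes, and many class I promoters hold an NF-kappa B element and an interferon response element, so the promoters of the genes on which the results turn are shown here. The sequences are the 200 bases before the annotated start in RefSeq (build GRCm38.p6), in the direction of transcription, and 34 of the 48 genes were in the promoter table. In the first 4, of class II genes, capitals mark the X box core GATGATGCT and the Y box core ATTGG, on either strand, where CCAAT is the Y box core read from the other strand. H2-Eb1 lies at chr17:34305667-34305866 (plus strand), H2-Aa at chr17:34287824-34288023 (minus strand), H2-DMb1 at chr17:34152991-34153190 (plus strand) and H2-DMb2 at chr17:34145049-34145248 (plus strand).
H2-Eb1: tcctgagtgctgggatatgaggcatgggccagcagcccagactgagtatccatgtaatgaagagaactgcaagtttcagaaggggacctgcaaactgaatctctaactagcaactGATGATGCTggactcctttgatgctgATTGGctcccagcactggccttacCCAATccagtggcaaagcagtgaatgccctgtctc
H2-Aa: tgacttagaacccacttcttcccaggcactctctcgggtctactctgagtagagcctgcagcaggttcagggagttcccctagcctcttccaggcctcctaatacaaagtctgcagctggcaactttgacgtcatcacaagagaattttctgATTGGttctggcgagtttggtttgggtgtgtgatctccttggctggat
H2-DMb1: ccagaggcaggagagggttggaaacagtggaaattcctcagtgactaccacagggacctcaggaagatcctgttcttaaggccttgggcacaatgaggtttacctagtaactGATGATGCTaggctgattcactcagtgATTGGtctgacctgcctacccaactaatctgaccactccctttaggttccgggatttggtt
H2-DMb2: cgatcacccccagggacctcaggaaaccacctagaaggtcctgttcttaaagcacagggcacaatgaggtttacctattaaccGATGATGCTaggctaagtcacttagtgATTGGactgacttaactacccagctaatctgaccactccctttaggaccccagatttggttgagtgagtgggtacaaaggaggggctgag

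In the next 3, of class I genes, capitals mark the NF-kappa B core GATTCCCC and the interferon response core GTTTCACTT. H2-K1 lies at chr17:34000348-34000547 (minus strand, the first of 2 starts in the table), H2-D1 at chr17:35262894-35263093 (plus strand) and H2-M3 at chr17:37270034-37270233 (plus strand).
H2-K1: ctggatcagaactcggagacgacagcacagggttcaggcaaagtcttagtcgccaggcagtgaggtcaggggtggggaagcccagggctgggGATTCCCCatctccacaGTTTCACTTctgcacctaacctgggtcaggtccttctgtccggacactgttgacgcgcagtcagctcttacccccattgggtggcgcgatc
H2-D1: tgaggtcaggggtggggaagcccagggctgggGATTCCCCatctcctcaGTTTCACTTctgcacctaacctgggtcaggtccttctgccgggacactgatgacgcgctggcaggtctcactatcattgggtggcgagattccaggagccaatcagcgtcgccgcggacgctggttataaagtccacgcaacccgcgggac
H2-M3: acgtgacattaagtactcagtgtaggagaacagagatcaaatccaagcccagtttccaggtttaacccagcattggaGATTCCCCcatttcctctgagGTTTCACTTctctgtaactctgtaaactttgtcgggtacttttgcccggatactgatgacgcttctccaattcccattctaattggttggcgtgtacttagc

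The letters of all 4 cores were settled after these promoters had been read, so their presence here is a description. The X box core GATGATGCT, on either strand, was in 57 of 32851 promoters of the same length (0.174%), and 3 of the 57 were H2-Eb1, H2-DMb1 and H2-DMb2. It began 85, 88 and 117 bases before the start in those 3 promoters, each time with the Y box core ATTGG behind it. The H2-Aa promoter held the Y box core, 48 bases before the start, without the X box core in these exact letters. H2-Ab1 was not in the table. The Y box core alone is common, with 29.3% of all promoters holding it on either strand, and 30 of the 34 promoters of the genes described here. The NF-kappa B core GATTCCCC was in 0.609% of all promoters and in those of H2-D1, H2-K1, H2-M3 and H2-Q6. The interferon response core GTTTCACTT was in 0.25% of all promoters and in 8 of the 34, among them H2-D1, H2-K1 and H2-M3. None of the 4 cores overlaps another in its letters in these 7 promoters.

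Levels are given as log2 intensity, on which a step of 1 is a doubling, and levels of different probes are not compared as amounts. The median of an array was 7.05 on this scale, and a probe was tested where it lay above the array median on at least 4 of the 12 arrays. This left 24443 probes (54%), and 45 of the 82 probes described here, for 29 genes. Differences were tested with limma across all 24443 probes, and a probe is said to be called, or to have risen or fallen, where its Benjamini-Hochberg adjusted p was under 0.05. Replicate numbers were taken to pair the A1G metastatic with the A1G primary tumours, on correlations in these data and not on the labels. The adjusted p with the replicate number as a block on the 8 A1G arrays is therefore given wherever it changes a call among the 45 probes. Each group enters 2 of the 3 comparisons, so these are not independent of each other. The tumours were measured whole, so more cells of a type and more RNA per cell cannot be told apart.

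Of the 37 probes not tested, 28 lay above the array median on no array, and the others on at most 3. Most of them were class I probes of the M genes, of which 14 of 17 were not tested, and of the T and Q genes (6 of 14 and 6 of 13). Among class II, the probes of H2-Ea, H2-Oa and H2-Ob were not tested, and neither was that of Ciita, which lay above the median on 1 array. H2-Ea, the alpha chain of I-E, was above the median on no array, with a mean of 6.21 over the 12 arrays. No tested probe lay above the median on A1G metastatic arrays alone. H2-Q8 on ILMN_2771182 and Tap1 did so on 4 metastatic, 1 primary and 0 Ptch1het arrays. Both would have failed the filter without the metastatic arrays, so their calls are not independent of it. Of the tested probes, 31 lay above the median on all 12 arrays.

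The first question was how the genes differed between metastatic and primary tumours labelled with the same alleles. Of the 10 tested class II probes, 4 were called, and 2 of the 3 Cd74 probes, all higher in the A1G metastatic tumours: the I-A beta chain H2-Ab1, both H2-DM beta genes, H2-DMa and the invariant chain Cd74 rose, by 0.88 to 1.93 on the log2 scale. Of class I, H2-D1, H2-K1, H2-M3 and H2-Q8 rose by 0.73 to 1.15, and the 19 class I probes not called differed by -0.37 to 1.14. In all, 10 of the 45 tested probes were called, all of them higher in the A1G metastatic tumours (4 of 23 class I, 4 of 10 class II, 2 of 3 Cd74 probes and 0 of 8 class I partner probes). Over all 24443 probes, 4.82% were called, 4.04% as higher and 0.786% as lower. The median difference was 1.28 over the 10 class II probes tested and 0.44 over the 23 class I probes tested, against -0.08 over all probes tested. Over every probe of the class, tested or not, these medians were 0.92 for 16 class II and 0.090 for 51 class I probes.

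With the replicate number as a block, 26 of the 45 probes were called, all higher (10 class I, 9 class II, 4 class I partner and 3 Cd74 probes), where 8.99% of all probes were called and 5.69% as higher. The count of 10 without the block moved with single arrays. It was 2 (4.44%) without A1G metastatic replicate 2 or without A1G primary replicate 4, where 3.2% and 3.58% of all probes were called, so the share was then near that of all probes. It was 4 (8.89%) without A1G metastatic replicate 4 or A1G primary replicate 1, against 3.88% and 4.01% of all probes, and 5 (11.1%) without A1G primary replicate 3, against 3.9%. It was 16 (35.6%) without A1G primary replicate 2, against 3.47%. With the metastatic tumours limited to replicates 1 and 4, whose genotype entry is worded as for the primary tumours, 1 of 45 was called (2.22%), the share being that of all probes (2.18%). The median difference was then 1.26 over the tested class II and 0.32 over the tested class I probes, so the calls were lost with fewer arrays while the class II median hardly moved. H2-M3 and 1 of the H2-DMa probes kept their call without each array in turn.

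**Figure D1:**
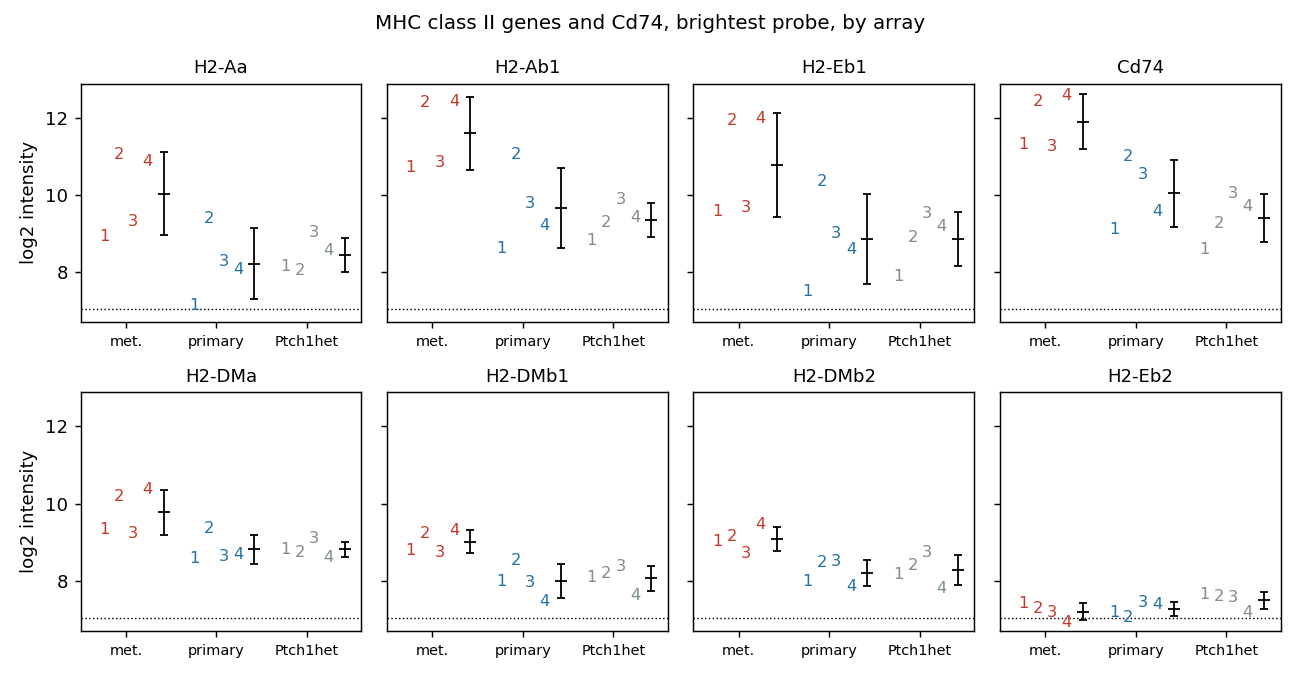
Level of class II genes and Cd74 (brightest probe of each gene) as log2 intensity (y axis) in A1G metastatic (met., red), A1G primary (blue) and Ptch1het tumours (grey). Each digit is 1 array, by its replicate number, bars give the mean and SD of 4 arrays, and the dotted line is the array median of 7.05. Metastatic replicates 2 and 4 stand above 1 and 3 in every panel but that of H2-Eb2.

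The I-A alpha chain H2-Aa had log2 intensities of 8.93, 11.04, 9.32 and 10.87 in the A1G metastatic tumours, 7.15, 9.38, 8.27 and 8.08 in the A1G primary tumours, and 8.15, 8.04, 9.02 and 8.57 in the Ptch1het tumours. Metastatic replicates 2 and 4 were far above every other array, whereas metastatic replicates 1 and 3 lay within the reach of primary replicate 2. The metastatic mean was 10.04 ± 1.07, against 8.22 ± 0.92 in the primary tumours (SD, n = 4 each), a difference of 1.82 ± 0.51 (SE) with an adjusted p of 0.0666. With the replicate block the difference was 1.82 ± 0.25 (SE) with an adjusted p of 0.00478, and it was above 0 in all 4 pairs, at 1.78, 1.65, 1.05 and 2.79 for replicates 1 to 4. The H2-Aa call without the block appeared where metastatic replicate 1 or primary replicate 2 was left out, with a lowest adjusted p of 0.0287.

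H2-Ab1 encodes the I-A beta chain and had 3 tested probes. On the brightest (ILMN_1226525), log2 intensities were 10.71, 12.40, 10.85 and 12.41 in the A1G metastatic tumours, 8.62, 11.04, 9.79 and 9.21 in the A1G primary tumours, and 8.82, 9.28, 9.87 and 9.43 in the Ptch1het tumours. Again metastatic replicates 2 and 4 led, and primary replicate 2 was the one primary tumour above the lower metastatic arrays. The probe rose by 1.93 ± 0.51 (SE) on the log2 scale, which is 3.81-fold, with an adjusted p of 0.0477. That call was lost without A1G metastatic replicate 2 or 4, without A1G primary replicate 1, 3 or 4, and without any 1 of the Ptch1het arrays, with a highest adjusted p of 0.159. Its adjusted p with the block was 0.00966.

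The other H2-Ab1 probes gave the same direction. ILMN_2631423 read 10.51, 11.62, 10.91 and 12.15 in A1G metastatic, 8.76, 10.65, 9.98 and 8.85 in A1G primary, and 7.58, 8.77, 9.75 and 9.02 in Ptch1het tumours. ILMN_2913716 read 9.36, 11.11, 9.68 and 11.22 in A1G metastatic, 7.83, 9.88, 9.02 and 8.54 in A1G primary, and 8.21, 8.86, 9.22 and 8.89 in Ptch1het tumours. Their differences were 1.74 ± 0.51 (adjusted p 0.0789) and 1.53 ± 0.47 (adjusted p 0.0949), and both were called with the replicate block, at adjusted p of 0.0247 and 0.0173. All 3 probes put metastatic replicates 2 and 4 above 1 and 3, and primary replicate 2 above the other primary tumours.

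H2-Eb1, the I-E beta chain, had an SD of 1.34 in metastatic and 1.17 in primary tumours, the widest of the tested class II probes in both groups. Its log2 intensities were 9.57, 11.92, 9.67 and 11.97 in the A1G metastatic tumours, 7.52, 10.35, 9.01 and 8.58 in the A1G primary tumours, and 7.89, 8.91, 9.51 and 9.17 in the Ptch1het tumours. The metastatic tumours fell into a high pair, replicates 2 and 4, and a lower pair, replicates 1 and 3, and the lower pair overlapped the primary tumours. The difference of 1.92 ± 0.66 (SE) had an adjusted p of 0.137 without the block, and of 0.0191 with it. H2-Eb2, a related beta chain gene, stayed near the array median, with 7.43, 7.30, 7.20 and 6.92 in A1G metastatic, 7.19, 7.06, 7.44 and 7.41 in A1G primary, and 7.65, 7.61, 7.57 and 7.18 in Ptch1het tumours, and its difference of -0.07 had a 95% interval of -0.40 to 0.27.

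H2-DMa and the 2 H2-DMb genes encode the chains of H2-DM, which loads class II molecules. H2-DMa on ILMN_2777769 had 8.997, 9.73, 8.94 and 9.64 in the A1G metastatic tumours, 8.22, 8.67, 8.21 and 8.16 in the A1G primary tumours, and 8.23, 8.51, 8.71 and 8.34 in the Ptch1het tumours. All 4 metastatic tumours lay above all 4 primary tumours. The probe rose by 1.01 ± 0.21 (SE), 2.02-fold, with an adjusted p of 0.0109, and its adjusted p stayed between 0.00761 and 0.0395 without each array in turn. On the other H2-DMa probe (ILMN_2866856) the log2 intensities were 9.33, 10.18, 9.24 and 10.36 in A1G metastatic, 8.59, 9.37, 8.63 and 8.69 in A1G primary, and 8.82, 8.75, 9.10 and 8.61 in Ptch1het tumours, and primary replicate 2 alone reached the metastatic range. Its difference was 0.96 ± 0.26 (SE), with an adjusted p of 0.0579 without the block and 0.0215 with it.

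H2-DMb1 had log2 intensities of 8.78, 9.24, 8.75 and 9.30 in A1G metastatic, 7.996, 8.54, 7.97 and 7.48 in A1G primary, and 8.10, 8.19, 8.38 and 7.63 in Ptch1het tumours, with no overlap of metastatic and primary tumours. It rose by 1.02 ± 0.23 (SE, adjusted p 0.0215). H2-DMb2 had 9.03, 9.15, 8.71 and 9.45 in A1G metastatic, 7.99, 8.48, 8.51 and 7.85 in A1G primary, and 8.18, 8.40, 8.74 and 7.81 in Ptch1het tumours, also without overlap, and rose by 0.88 ± 0.23 (SE, adjusted p 0.0438). The H2-DMb1 call was lost without A1G metastatic replicate 2 or 4 or A1G primary replicate 1, 3 or 4 (highest adjusted p 0.0767). The H2-DMb2 call was lost without A1G metastatic replicate 1, 2 or 4, A1G primary replicate 1, 2 or 4, or Ptch1het replicate 1 (highest adjusted p 0.13). Both were called with the replicate block. A second H2-DMb2 probe lay above the median on no array.

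Cd74, the invariant chain that travels with class II molecules, had 3 tested probes. On ILMN_1221817 the log2 intensities were 11.30, 12.42, 11.26 and 12.58 in the A1G metastatic tumours, 9.10, 10.998, 10.52 and 9.59 in the A1G primary tumours, and 8.60, 9.26, 10.03 and 9.70 in the Ptch1het tumours. Metastatic tumours lay above primary tumours without overlap, again with replicates 2 and 4 on top. That probe rose by 1.84 ± 0.45 (SE), 3.58-fold, with an adjusted p of 0.0311. ILMN_1247832, the dimmest, had 8.48, 9.58, 8.45 and 9.66 in A1G metastatic, 6.75, 8.35, 7.88 and 6.89 in A1G primary, and 6.64, 6.92, 7.32 and 7.27 in Ptch1het tumours, and rose by 1.58 ± 0.38 (SE, adjusted p 0.0288). Both Cd74 calls were lost without A1G metastatic replicate 2 or 4 or A1G primary replicate 1 or 4, with a highest adjusted p of 0.107. ILMN_3089584 had 10.86, 12.26, 10.76 and 12.16 in A1G metastatic, 8.91, 10.87, 10.11 and 9.44 in A1G primary, and 8.21, 9.03, 9.69 and 9.54 in Ptch1het tumours. Its metastatic replicates 1 and 3 lay just below primary replicate 2, and its difference of 1.68 ± 0.47 (SE) had an adjusted p of 0.0643 without the block and 0.0127 with it.

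The order of the arrays was shared across the class II group. In 12 of the 12 tested probes of class II genes and Cd74 other than H2-Eb2, metastatic replicates 2 and 4 were both above replicates 1 and 3. Primary replicate 2 was the highest primary tumour in 11 of these 12, and primary replicate 1 or 4 the lowest in 12. Averaged over the 10 tested class II probes, the level was 9.26, 10.37, 9.33 and 10.43 in A1G metastatic replicates 1 to 4, 7.99, 9.34, 8.68 and 8.28 in the A1G primary tumours, and 8.16, 8.53, 8.99 and 8.47 in the Ptch1het tumours. Primary replicate 2 thus stood at the level of metastatic replicates 1 and 3. The median SD within a group was 0.65 in the metastatic and 0.65 in the primary tumours for class II probes, against 0.24 and 0.22 over all probes tested.

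Class I probes were ordered otherwise among the metastatic tumours. Averaged over the 23 tested class I probes, the level was 8.32, 8.89, 8.52 and 8.52 in A1G metastatic replicates 1 to 4, 8.20, 8.44, 7.94 and 7.94 in the A1G primary tumours, and 8.19, 8.16, 8.21 and 7.98 in the Ptch1het tumours. Metastatic replicate 2 was the highest metastatic array for 8 of the 12 class I probes that were above the median on every array, and replicate 4 for 1 of them. Replicate 4 was the highest for 7 of 9 such class II probes. Among the primary tumours the classes shared their highest array, replicate 2, for 9 of these 12 class I and 8 of these 9 class II probes. The median SD of class I probes was 0.34 in metastatic and 0.34 in primary tumours.

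**Figure D2:**
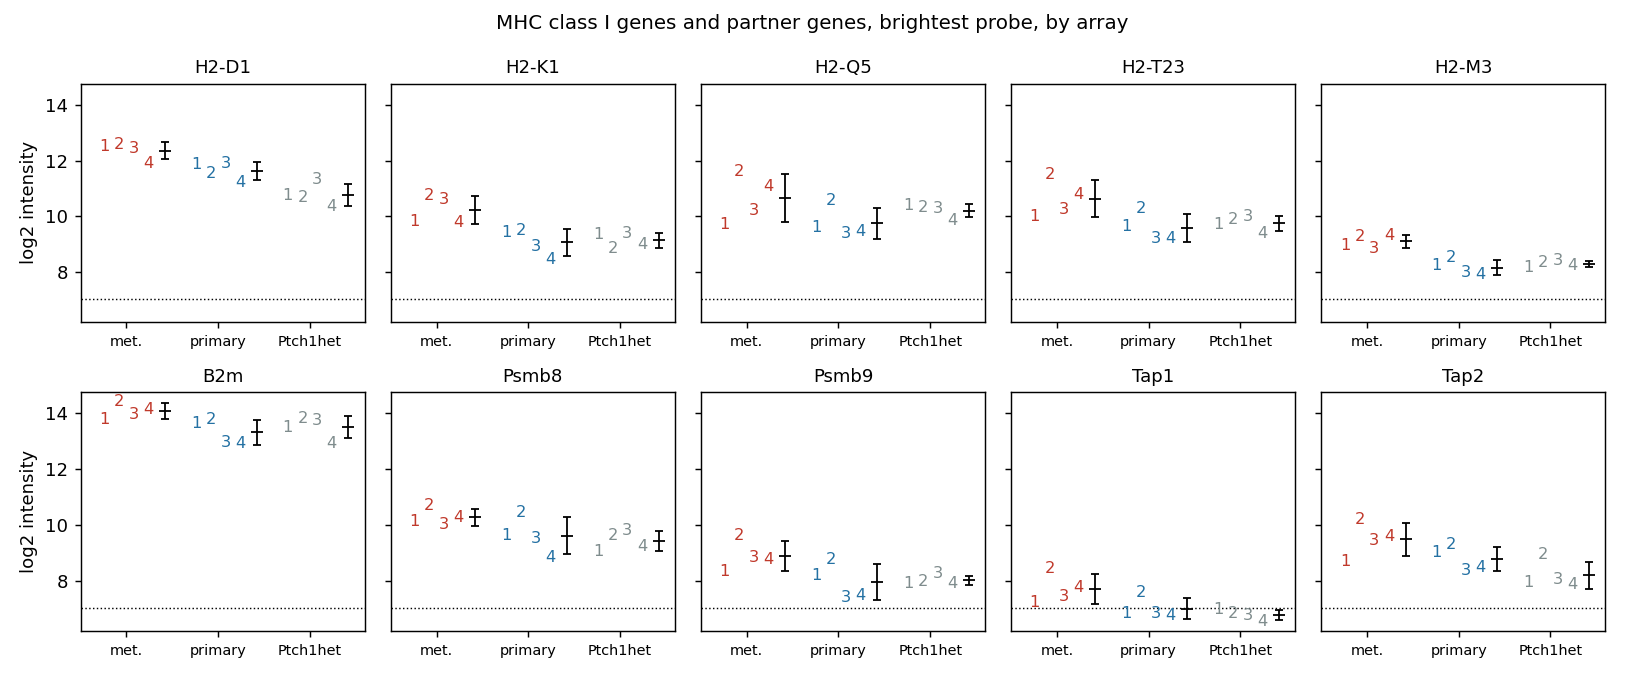
Level of 5 class I genes and 5 class I partner genes (brightest probe of each) as log2 intensity (y axis) in A1G metastatic (met., red), A1G primary (blue) and Ptch1het tumours (grey). Each digit is 1 array, by its replicate number, bars give the mean and SD of 4 arrays, and the dotted line is the array median of 7.05. H2-D1, H2-K1, H2-M3 and, narrowly, B2m separate metastatic from primary tumours, and Tap1 lies below the median on all 4 Ptch1het arrays. The partner gene Tapbp, with a difference of -0.01 between metastatic and primary tumours, is not drawn.

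H2-D1 encodes the classical class I heavy chain of the D locus and had 2 bright probes and 1 dim one. On ILMN_2462745 the log2 intensities were 12.50, 12.57, 12.45 and 11.89 in the A1G metastatic tumours, 11.84, 11.55, 11.88 and 11.21 in the A1G primary tumours, and 10.74, 10.66, 11.31 and 10.34 in the Ptch1het tumours. The means of the 3 groups stepped down in that order, and the metastatic tumours did not overlap the primary ones. That difference was 0.73 ± 0.23 (SE), with an adjusted p of 0.0962 without the block and 0.0162 with it. On ILMN_2476267 the values were 11.64, 12.07, 12.33 and 11.43 in A1G metastatic, 11.33, 10.89, 10.76 and 10.51 in A1G primary, and 10.29, 10.49, 10.65 and 9.998 in Ptch1het tumours. This probe rose by 0.99 ± 0.23 (SE), 1.99-fold, with an adjusted p of 0.0228, and lost its call without A1G metastatic replicate 2 or 3 or A1G primary replicate 2, 3 or 4 (highest adjusted p 0.0799).

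H2-K1, the classical heavy chain of the K locus, had log2 intensities on its brighter probe (ILMN_2588139) of 9.80, 10.74, 10.59 and 9.79 in the A1G metastatic tumours, 9.41, 9.51, 8.94 and 8.47 in the A1G primary tumours, and 9.36, 8.85, 9.38 and 9.01 in the Ptch1het tumours. Metastatic replicates 2 and 3 were highest, and all 4 metastatic tumours lay above all 4 primary tumours. The probe rose by 1.15 ± 0.27 (SE), 2.22-fold, with an adjusted p of 0.0278, which rose above 0.05 without A1G metastatic replicate 2 or 3 or A1G primary replicate 3 or 4 (highest 0.0983). The dimmer probe (ILMN_2795520) differed by 0.57 ± 0.20 (SE), with an adjusted p of 0.134 without the block and 0.0441 with it. The third classical gene on the arrays, H2-D4, was above the median on no array.

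H2-M3, a nonclassical heavy chain known for presenting N-formylated peptides, had 8.96, 9.29, 8.87 and 9.32 in the A1G metastatic tumours, 8.24, 8.53, 7.99 and 7.91 in the A1G primary tumours, and 8.19, 8.37, 8.43 and 8.23 in the Ptch1het tumours. Metastatic and primary tumours did not overlap, and all 4 same-number pairs differed upwards, by 0.72, 0.76, 0.88 and 1.41. It rose by 0.94 ± 0.16 (SE), 1.92-fold, with an adjusted p of 0.00371, the smallest of all 45 probes, and it kept its call without each array in turn (adjusted p 0.00251 to 0.0165). The other M genes behaved otherwise: H2-M10.1 differed by -0.08 and H2-M10.3 by -0.18, with 95% intervals of -0.47 to 0.31 and -0.55 to 0.19.

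Of the Q genes, H2-Q8 was called on 1 of its 2 probes. ILMN_2771182 read 7.35, 7.77, 7.46 and 7.25 in A1G metastatic, 6.52, 7.29, 6.47 and 6.64 in A1G primary, and 6.56, 6.88, 6.77 and 6.55 in Ptch1het tumours, so that 3 of the 4 primary tumours and every Ptch1het tumour lay below the array median. It rose by 0.73 ± 0.19 (SE) against the primary tumours, with an adjusted p of 0.0449. That call was lost without any 1 of 10 of the 12 arrays, the exceptions being A1G primary replicate 2 and Ptch1het replicate 2, with a highest adjusted p of 0.15. The other H2-Q8 probe (ILMN_2951592) read 7.82, 7.93, 8.09 and 7.43 in A1G metastatic, 7.71, 7.57, 7.33 and 6.61 in A1G primary, and 7.07, 6.87, 7.08 and 7.03 in Ptch1het tumours, and differed by 0.51 ± 0.22 (SE, adjusted p 0.24).

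H2-Q5 read 9.70, 11.61, 10.22 and 11.07 in A1G metastatic, 9.59, 10.59, 9.40 and 9.45 in A1G primary, and 10.38, 10.32, 10.29 and 9.85 in Ptch1het tumours. Metastatic replicates 2 and 4 were high, as in class II, and primary replicate 2 stood clear of the other primary tumours. Its difference was 0.89 ± 0.37 (SE), with an adjusted p of 0.227 without the block and 0.0499 with it. The brighter H2-Q7 probe, for a Qa-2 heavy chain, read 8.30, 9.32, 8.37 and 8.77 in A1G metastatic, 8.10, 9.12, 7.85 and 7.95 in A1G primary, and 8.65, 8.09, 8.50 and 8.09 in Ptch1het tumours, and its difference was 0.43 ± 0.29 (SE, adjusted p 0.47). Of the 45 tested probes, that of H2-Q1 had the most negative difference, -0.37 ± 0.17 (SE, adjusted p 0.277), with 7.70, 7.74, 7.91 and 7.53 in A1G metastatic, 8.33, 7.86, 8.24 and 7.93 in A1G primary, and 8.46, 7.87, 7.99 and 7.80 in Ptch1het tumours.

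H2-T23 encodes Qa-1, a nonclassical molecule read by NK cells and some T cells, and had 3 tested probes, none of them called without the block. The brightest (ILMN_2777474) had 9.99, 11.48, 10.25 and 10.80 in A1G metastatic, 9.64, 10.27, 9.20 and 9.21 in A1G primary, and 9.73, 9.88, 10.002 and 9.39 in Ptch1het tumours. Metastatic replicates 2 and 4 were highest here too. The 3 differences were 1.05 ± 0.31 (ILMN_2777474), 0.81 ± 0.33 (ILMN_2777471) and 1.14 ± 0.44 (ILMN_1223179), with adjusted p of 0.0842, 0.215 and 0.189. With the replicate block the adjusted p were 0.0183, 0.0297 and 0.046, and all 3 were called. H2-T18 and H2-Tw3 lay at about the array median and differed by -0.09 and 0.00.

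Of the 8 tested probes of class I partner genes, 7 had a difference above 0, as had 38.5% of all probes, and none was called without the block. B2m, the light chain of every class I molecule, had 13.78, 14.43, 13.96 and 14.15 in A1G metastatic, 13.62, 13.77, 12.96 and 12.92 in A1G primary, and 13.51, 13.80, 13.75 and 12.93 in Ptch1het tumours on its brighter probe. The 4 metastatic tumours lay above the 4 primary ones, narrowly, since metastatic replicate 1 and primary replicate 2 differed little. The differences of the 2 bright B2m probes were 0.76 ± 0.24 and 0.75 ± 0.23 (SE), with adjusted p of 0.107 and 0.101 without the block, and of 0.0434 and 0.0422 with it.

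Psmb9, an immunoproteasome subunit, read 8.35, 9.62, 8.83 and 8.76 in A1G metastatic, 8.20, 8.78, 7.41 and 7.50 in A1G primary, and 7.92, 7.998, 8.27 and 7.92 in Ptch1het tumours. Its difference was 0.92 ± 0.31 (SE), with an adjusted p of 0.123 without the block and 0.0351 with it. The brighter probe of Psmb8, its partner subunit, read 10.13, 10.71, 10.01 and 10.29 in A1G metastatic, 9.65, 10.46, 9.54 and 8.85 in A1G primary, and 9.06, 9.62, 9.82 and 9.25 in Ptch1het tumours, and its difference of 0.66 ± 0.29 (SE) was called in neither fit (adjusted p 0.256, and 0.0859 with the block). Primary replicate 2 was the highest primary tumour for both genes.

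Tap1 and Tap2 encode the chains of the peptide transporter. Tap1 read 7.24, 8.45, 7.45 and 7.77 in A1G metastatic, 6.85, 7.60, 6.84 and 6.78 in A1G primary, and 6.99, 6.84, 6.77 and 6.56 in Ptch1het tumours. In the primary tumours only replicate 2 was above the array median. Its difference was 0.71 ± 0.25 (SE), with an adjusted p of 0.153 without the block and 0.0244 with it. Tap2 read 8.72, 10.19, 9.46 and 9.59 in A1G metastatic, 9.01, 9.31, 8.37 and 8.49 in A1G primary, and 7.96, 8.94, 8.04 and 7.87 in Ptch1het tumours, with metastatic replicate 1 below its same-number primary tumour and the other 3 pairs higher, and its difference of 0.70 ± 0.32 (SE) was called in neither fit (adjusted p 0.281, and 0.116 with the block). Tapasin (Tapbp) read 8.23, 8.19, 7.79 and 8.27 in A1G metastatic, 8.10, 8.38, 8.21 and 7.84 in A1G primary, and 7.71, 7.84, 8.30 and 7.66 in Ptch1het tumours. It differed by -0.01, with a 95% interval of -0.40 to 0.38. H2-Ke6, the gene of the region outside antigen presentation, differed by 0.15, with an interval of -0.15 to 0.45.

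**Figure D3:**
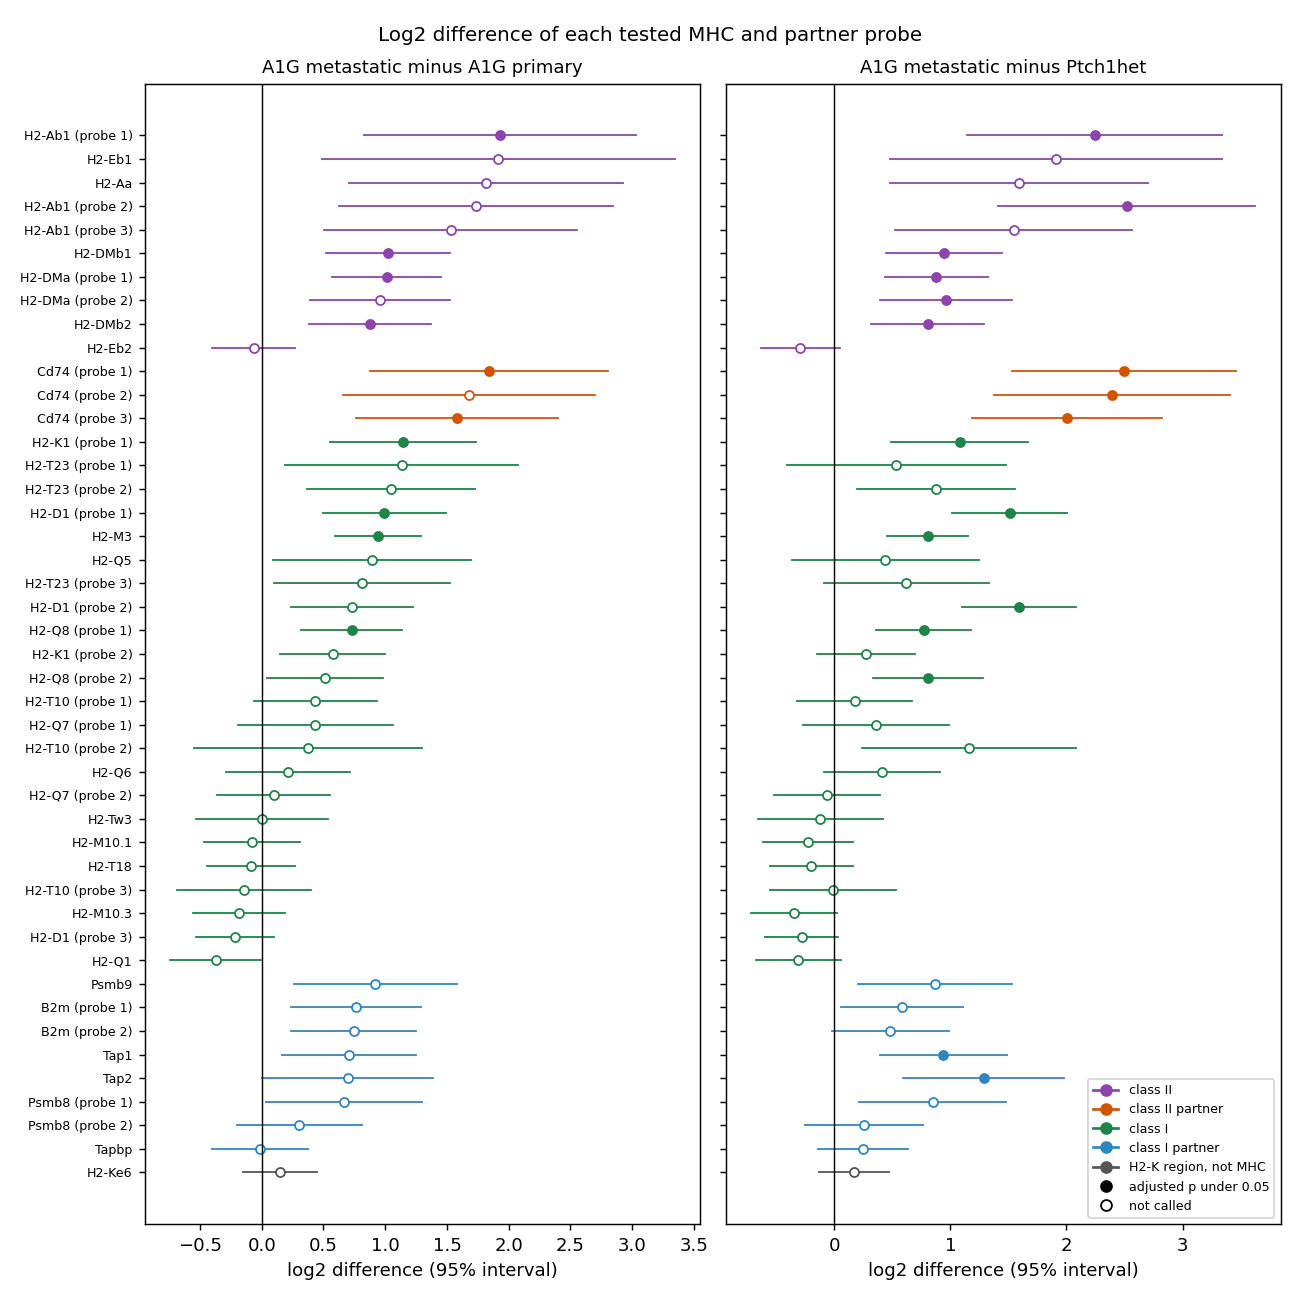
Log2 difference with its 95% interval (x axis) for each of the 45 tested probes (y axis), A1G metastatic minus A1G primary at left and A1G metastatic minus Ptch1het at right, by class. Filled points were called at an adjusted p under 0.05 without the block; 10 points are filled at left and 17 at right, all above 0, and probes of a gene are numbered in the order drawn.

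Probes of the same gene were compared next, as the class I genes are close copies of each other. No probe sequence was used here, so the signal of a class I probe cannot be assigned to 1 locus with certainty. Several probes were present for 22 of the 48 genes, and 11 of these had several tested probes. In 9 of the 11 the tested probes agreed in sign, all above 0, in the difference between metastatic and primary tumours. These were the class II genes H2-Ab1 and H2-DMa, the partners B2m, Cd74 and Psmb8, and the class I genes H2-K1, H2-Q7, H2-Q8 and H2-T23. Agreement was closest in size for B2m, at 0.76 and 0.75, and for H2-DMa, at 1.01 and 0.96. It was loosest for H2-K1, at 1.15 on the bright and 0.57 on the dim probe. Of the remaining 11 genes, 8 had 1 tested probe and 3 had none.

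H2-D1 and H2-T10 were the 2 genes whose probes disagreed in sign. The third H2-D1 probe (ILMN_2608090) lay at the array median, with 7.14, 7.19, 6.68 and 7.15 in A1G metastatic, 7.04, 7.39, 7.40 and 7.19 in A1G primary, and 7.44, 7.37, 7.20 and 7.28 in Ptch1het tumours, and differed by -0.22 ± 0.15 (SE) between metastatic and primary tumours, against 0.73 and 0.99 on the 2 bright probes. H2-T10, a nonclassical gene of the T region, had 3 tested probes, with differences of -0.14 (ILMN_1230878), 0.44 (ILMN_2665266) and 0.38 (ILMN_2894678), none called in either fit. The dimmest of the 3 by its mean, ILMN_2894678, had 8.57, 7.07, 8.34 and 6.69 in the A1G metastatic tumours, 8.25, 6.71, 7.53 and 6.67 in the A1G primary tumours, and 6.44, 6.37, 6.37 and 6.84 in the Ptch1het tumours. Replicates 1 and 3 were high and replicates 2 and 4 low in the metastatic and in the primary tumours alike, and all 4 Ptch1het tumours lay below the array median. Neither of the other probes followed this order: ILMN_1230878 read 8.05, 8.86, 8.09 and 8.41 in A1G metastatic, 8.47, 8.85, 8.03 and 8.62 in A1G primary, and 7.76, 8.52, 8.81 and 8.37 in Ptch1het tumours, and ILMN_2665266 read 7.22, 8.43, 7.85 and 7.98 in A1G metastatic, 7.20, 7.87, 7.19 and 7.47 in A1G primary, and 7.77, 7.59, 7.59 and 7.83 in Ptch1het tumours.

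**Figure D4:**
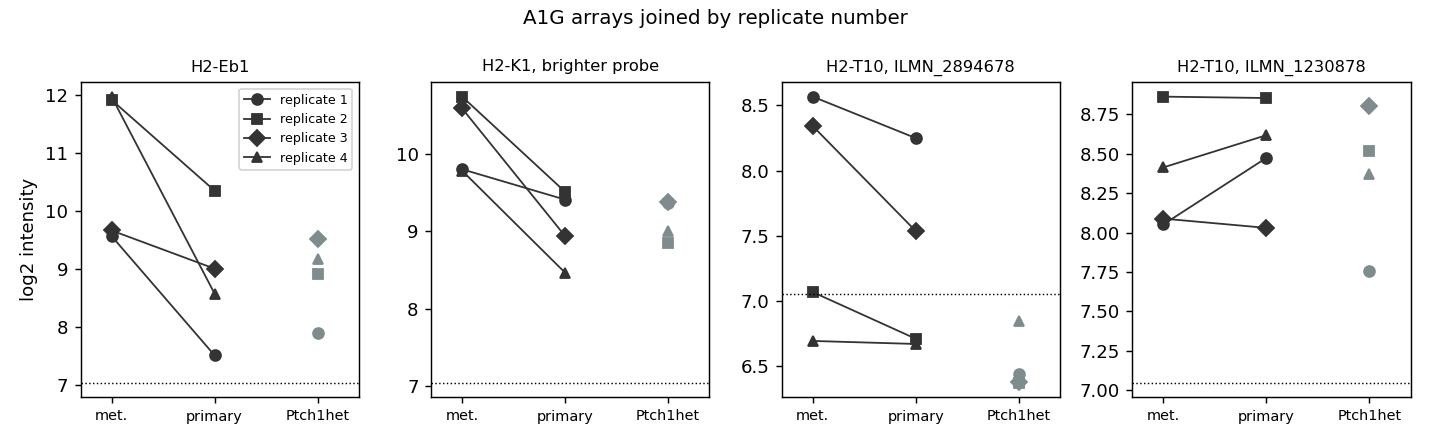
Log2 intensity (y axis, a separate range in each panel) of H2-Eb1, the brighter H2-K1 probe and 2 H2-T10 probes, with A1G metastatic (met.) and A1G primary tumours of the same replicate number joined by a line and Ptch1het tumours at right, unjoined. The dotted line is the array median of 7.05. H2-Eb1 and H2-K1 are higher in the metastatic tumour of all 4 pairs, whereas H2-T10 on ILMN_2894678 splits replicates 1 and 3 from 2 and 4 in both A1G groups.

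A second comparison asked how A1G primary and Ptch1het tumours differed. None of the 45 probes was called between A1G primary and Ptch1het tumours, where limma called 0.0245% of all probes. At an unadjusted p under 0.05, 2 of the 45 probes differed, against 13.2% of all probes tested. The median difference was -0.04 over the tested class II probes and -0.11 over the tested class I probes, against -0.02 over all probes. The smallest adjusted p was 0.219, for H2-D1 on ILMN_2462745, with a difference of 0.86 ± 0.23 (SE). Its A1G primary values were 11.84, 11.55, 11.88 and 11.21, and its Ptch1het values 10.74, 10.66, 11.31 and 10.34, with primary replicate 4 alone below the highest Ptch1het tumour. The other bright H2-D1 probe differed by 0.52 ± 0.23 (SE, adjusted p 0.367).

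Absence of a call here does not show that the levels were alike. The 95% interval was -1.34 to 0.88 for H2-Aa, -0.79 to 1.41 for the brightest H2-Ab1 probe, -0.31 to 1.62 for the brightest Cd74 probe and -1.43 to 1.42 for H2-Eb1, each of them wider than 1 log2 unit. For some class I genes the intervals were narrower, at -0.49 to 0.21 for H2-M3 and -0.66 to 0.52 for the brighter H2-K1 probe. Ptch1het replicate 3 was the highest Ptch1het tumour for 9 of the 9 class II probes above the median on every array.

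In the third comparison, of A1G metastatic with Ptch1het tumours, genotype and the metastatic label differ together and cannot be told apart. Here 17 of the 45 probes were called, all higher in the A1G metastatic tumours (6 class I, 6 class II, 2 class I partner and 3 Cd74 probes). Of all probes, 8.8% were called, 5.36% as higher and 3.44% as lower. The median difference was 1.25 over the tested class II and 0.41 over the tested class I probes, against -0.09 over all probes. Without A1G metastatic replicate 2, 7 were called (15.6%, against 4.22% of all probes) and the class I median was 0.13. Without A1G metastatic replicate 4, 10 were called (22.2%, against 5.29%), without Ptch1het replicate 1, 8 (17.8%, against 6.02%), and without Ptch1het replicate 4, 9 (20%, against 8.26%). With metastatic replicates 1 and 4 alone, 5 were called (11.1%, against 3% of all probes), with medians of 1.24 for class II and 0.17 for class I.

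The 3 Cd74 probes rose by 2.49 ± 0.45, 2.39 ± 0.47 and 2.00 ± 0.38 (SE), which is 5.63-, 5.24- and 4.01-fold, with adjusted p of 0.00454, 0.0082 and 0.00636. All 3 kept their call without each array in turn, and metastatic and Ptch1het tumours did not overlap on any of them. H2-Ab1 rose on ILMN_2631423 by 2.52 ± 0.51 (SE, adjusted p 0.00971) and on ILMN_1226525 by 2.24 ± 0.51 (SE, adjusted p 0.0173). The first of these kept its call without each array, and the second lost it without A1G metastatic replicate 2 or 4 or Ptch1het replicate 1. H2-DMa rose on both probes, by 0.88 and 0.96, H2-DMb1 by 0.94 and H2-DMb2 by 0.80, with adjusted p of 0.0198, 0.0405, 0.0256 and 0.045. All 4 of these H2-DM calls were lost without A1G metastatic replicate 2 or 4 or Ptch1het replicate 1, and some without others (highest adjusted p 0.126). Without Ptch1het replicate 4, all but ILMN_2777769 of H2-DMa lost it. The H2-DMb2 call and the H2-DMa call on ILMN_2866856 were also lost without Ptch1het replicate 2 or A1G primary replicate 3. A1G primary replicate 4 mattered likewise for that H2-DMa call, and A1G metastatic replicate 1 and A1G primary replicates 1 and 2 for that of H2-DMb2. The third H2-Ab1 probe (ILMN_2913716), H2-Aa and H2-Eb1, with differences of 1.55 ± 0.47, 1.59 ± 0.51 and 1.91 ± 0.66 (SE), were not called (adjusted p 0.0598, 0.0709 and 0.0883).

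Among class I genes, H2-D1 had the largest differences from Ptch1het tumours. Its bright probes rose by 1.59 ± 0.23 and 1.51 ± 0.23 (SE), 3.01- and 2.85-fold, with adjusted p of 0.000871 and 0.00143, and both kept their call without each array in turn. The same held for H2-M3, at 0.80 ± 0.16 (SE, adjusted p 0.00929). The brighter H2-K1 probe rose by 1.08 ± 0.27 (SE, adjusted p 0.029), a call lost without A1G metastatic replicate 2 or 3 or Ptch1het replicate 2 or 4. H2-Q8 was called on both probes. On ILMN_2951592 it rose by 0.81 ± 0.22 (SE, adjusted p 0.0387), a call kept without A1G metastatic replicate 4 or A1G primary replicate 1, 2 or 4 and lost without any 1 of the other 8 arrays (highest adjusted p 0.107). On ILMN_2771182 all Ptch1het tumours lay below the array median, so it was at least 1.33-fold higher, with the array median as the floor (adjusted p 0.0256). That call was lost without A1G metastatic replicate 2 or Ptch1het replicate 1 or 4 (highest adjusted p 0.0874).

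The transporter genes were called in this comparison. Tap2 rose by 1.29 ± 0.32 (SE), 2.44-fold, with an adjusted p of 0.0274, and Ptch1het replicate 2 was the 1 Ptch1het tumour above any metastatic one. Tap1 was at least 1.6-fold higher, as its 4 Ptch1het values lay below the array median (adjusted p 0.0378). Both calls were lost without A1G metastatic replicate 2 or 4 or Ptch1het replicate 1, 3 or 4. The Tap1 call was also lost without A1G primary replicate 3 or Ptch1het replicate 2. H2-D1 on the dim ILMN_2608090 was lower without overlap in the metastatic than in the Ptch1het tumours, by a difference of -0.28 that was not called (adjusted p 0.238).

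Other genes of antigen presentation were counted from gene lists. Of all probes tested, 4.04% were called higher in metastatic than in primary tumours without the block and 5.69% with it. Of 8 tested genes of a class I pathway list (with Psme1, Psme2 and Pdia3 among them), Tapbpl, a tapasin-related peptide editor, rose in metastatic against primary tumours, with a log2 difference of 0.67 (adjusted p 0.0321), and none fell. Irf1, a transcription factor of the interferon response, differed by 1.15 and was called with the replicate block (adjusted p 0.057 without it and 0.00384 with it), as was Calr, a chaperone, which was lower by a difference of -0.57 (adjusted p 0.177, and 0.0455 with the block). Of 6 tested genes of a class II pathway list (Ctss, Ctsl, Lgmn, Ifi30, Rfxap and Rfxank), none was called in either fit. Of 6 tested class I-like genes outside H2, Fcgrt, the neonatal Fc receptor, rose by 1.22 (adjusted p 0.0075). Of 15 tested interferon-induced genes none was called without the block and 5 were called higher with it (Oasl2, Gbp2, Gbp3, Igtp and Cxcl9).

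Some markers of other cell types also differed between the groups, and their part in the result was not tested. Their counts stand beside 4.04% of all probes called higher in metastatic than in primary tumours, and 5.69% with the block. Of 16 tested microglia and macrophage markers 3 rose in metastatic against primary tumours (Tmem119, Mrc1 and Emr1) and 5 with the replicate block, which added Fcer1g (adjusted p 0.102 without it and 0.0445 with it) and Lyz2 (0.168 and 0.0297). The summed intensity of the list was 45765 to 54617 in metastatic, 23450 to 39588 in primary and 25171 to 48213 in Ptch1het tumours. Itgam and Ptprc lay above the median on no array. Of the T and NK cell markers Cd3e, Cd3g, Cd8b1 and Nkg7 were called higher, of which Cd3g and Nkg7 passed the filter through the metastatic arrays alone, so no count is read from this list. On the primary arrays 9 of its 11 markers lay above the median on none, and on the Ptch1het arrays 6 of 11. It had sums of 1426 to 2423 in metastatic, 1095 to 1271 in primary and 1122 to 1312 in Ptch1het tumours, with Cd8a and Gzmb above the median on no array of any group. B cell markers rose in 2 of 5, with sums of 1094 to 1463 in metastatic, 794 to 978 in primary and 823 to 901 in Ptch1het tumours, and with Pax5 above the median on no array. Of 4 tested dendritic cell markers none was called, with sums of 1078 to 1698 in metastatic, 1033 to 1399 in primary and 992 to 1351 in Ptch1het tumours, and Itgax, Xcr1, Clec9a and Cd209a lay above the median on no array. Endothelial markers rose in 3 of 10 (Cdh5, Emcn and Ly6a) without the block, and in 2 with it, as Cdh5 lost its call (adjusted p 0.0468 without the block and 0.0595 with it). Their sum was 11815, 22417, 7184 and 18189 in metastatic replicates 1 to 4. Replicates 2 and 4 were highest there, as they were for the B cell and meningeal fibroblast sums. Replicates 2 and 4 were not the 2 highest for the microglia and macrophage, dendritic, T and NK or Schwann cell sums. The microglia and macrophage sum was 45765, 49042, 52492 and 54617 in metastatic replicates 1 to 4. In the other groups the endothelial order differed from that of class II. The endothelial sum was 7366 to 11249 in primary tumours, lowest in replicate 2, and 6293 to 9874 in Ptch1het tumours, lowest in replicate 3. The fibroblast sum was highest in primary replicate 3 (13667, against 9054 in replicate 2) and, as class II, in Ptch1het replicate 3. The B cell sum was highest in primary replicate 2, as class II, but in Ptch1het replicate 1 (901). Meningeal fibroblast markers rose in 6 of 7, with sums of 29562 to 43953 in metastatic, 7006 to 13667 in primary and 9056 to 19538 in Ptch1het tumours. Of the Schwann cell markers Pmp22, Prx, Pmp2 and Gldn were among those called higher. Of the 6 markers, 3 passed the filter through the metastatic arrays alone, Prx and Pmp2 among them, so no count is read from this list either. The list had sums of 15639 to 19854 in metastatic, 3680 to 5599 in primary and 1809 to 3584 in Ptch1het tumours. Of 10 tested genes of granule progenitors and SHH tumours none was called in any comparison, with sums of 51447 to 66601 in metastatic, 62091 to 72517 in primary and 60554 to 65801 in Ptch1het tumours, and Atoh1, Gli1 and Mycn lay above the median on no array.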

How the data were processed

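Total RNA of 12 tumours was hybridised to Illumina BeadChips as biotinylated cRNA, per the labels' protocols. The authors deposited linear probe intensity for 45281 probes, which the values show to be normalized between arrays (medians of 187 on all 12) without background subtraction. How they normalized them, and the probe sequences, are not given in the sources used here. Symbols came from the authors' deposited probe annotation. Its 24 per-array columns are named by chip and position, match no label, and were not used.

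The intensities were corrected with normexp (offset 50), quantile normalized and taken to log2, in limma 3.58.1 (R 4.3.3). Probes above the array median (7.05) on at least 4 of 12 arrays were fitted with lmFit and eBayes over 3 groups, with Benjamini-Hochberg adjustment over 24443 probes. A run on simulated data with known changes checked the fit. With 4 arrays a group, their number limits the precision.

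Deviations from the group means correlated between A1G metastatic and A1G primary tumours of the same number (0.45, 0.17, 0.20 and 0.28 for replicates 1 to 4). The highest correlation of each metastatic tumour with another number was -0.07, 0.16, 0.07 and 0.14, so replicate 2 hardly stood out. All were over 0.1, so the numbers were taken to pair these groups, and a fit with the replicate block on the 8 A1G arrays, added after seeing the data, is given beside the results. The pairing comes from the data and not from the labels. With Ptch1het tumours the correlations were -0.06 to 0.33, and the block was not used there, other than in an alternative on all 12 arrays. The 0.33 was that of A1G primary and Ptch1het replicate 4, and lay above the values of A1G replicates 2 to 4.

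Values on every array are given for each probe called, for the brightest probe of class II and partner genes, for the 6 brightest class I genes, and for genes whose probes disagree. Promoters are from RefSeq (GRCm38.p6). The genes, gene lists and motifs were chosen with earlier results of these data known. Alternatives were other background, normalization and filter choices, 1 value per gene, other sample sets, and leaving out each array.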

Additional observations from a re-analysis of the deposited data

Results flagged for a closer look

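In 13 of 135 groups of 4 arrays of the tested probes, 1 array stood far from the other 3, by its gap to the nearest over the range of the group (Dixon's ratio, above its 95% critical value for 4 values). Chance flags about 1 in 20 such groups, and probes of related genes share arrays. Primary replicate 2 was the high array in 4 of them: H2-DMa on ILMN_2777769 (ratio 0.886; 8.67 against 8.16 to 8.22 in the other primary tumours, as log2 intensity) and on ILMN_2866856 (0.875; 9.37 against 8.59 to 8.69), Tap1 (0.91; 7.60 against 6.78 to 6.85) and H2-Q5 (0.835; 10.59 against 9.40 to 9.59).

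Among metastatic tumours, replicate 2 was high for H2-K1 on ILMN_2795520 (0.926; 8.06 against 7.46 to 7.50), and replicate 1 was high for H2-M10.1 (0.866; 7.92 against 7.58 to 7.62). Metastatic replicate 3 was low for Tapbp (0.836; 7.79 against 8.19 to 8.27) and for H2-D1 on the dim ILMN_2608090 (0.903; 6.68 against 7.14 to 7.19).

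Among Ptch1het tumours, replicate 4 was low for H2-Q5 (0.83; 9.85 against 10.29 to 10.38) and for H2-Eb2 (0.838; 7.18 against 7.57 to 7.65), and high for H2-T10 on ILMN_2894678 (0.853; 6.84 against 6.37 to 6.44, all below the array median). Ptch1het replicate 2 was high for Tap2 (0.84; 8.94 against 7.87 to 8.04), and replicate 1 for H2-Ke6 (0.845; 13.02 against 12.68 to 12.73).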

How the results depend on the processing

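No probe called without the block changed sign when single arrays were left out. For named probes with small differences, such as Tapbp (-0.01), the sign rests on single arrays. The median of class II for A1G primary minus Ptch1het tumours, -0.04, turned positive without A1G primary replicate 1 (0.10), without A1G primary replicate 4 (0.066) and without Ptch1het replicate 3 (0.085). For A1G metastatic against A1G primary tumours, 1179 probes were called (783 to 1288 leaving out each array) and 10 of the 45 probes described here (2 to 16), with class medians of 0.44 for class I (0.33 to 0.61) and 1.28 for class II (1.08 to 1.54). With the replicate block on the 8 A1G arrays 2197 and 26 were called, and with the block on all 12 arrays 16 of the 45. Among the 45 probes the block ended no call on 8 arrays, and on 12 arrays that of H2-DMb2 in both comparisons of metastatic tumours. With the filter at all 12 arrays, 532 and 6 were called and the class I median was 0.77; with no filter it was 0.090, as more dim probes enter. With the brightest probe per gene 6 were called. With the mean of a gene's probes also 6, with a class I median of 0.24. With metastatic replicates 1 and 4 only, 533 and 1 were called, with class medians of 0.32 for class I and 1.26 for class II.

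Against Ptch1het tumours, A1G primary tumours gave 6 called probes (4 to 43; 10 without Ptch1het replicate 2, 43 without Ptch1het replicate 4, and 3 with the filter at all 12 arrays), none of them described here under any alternative run (0 to 0), with class medians of -0.11 (-0.19 to -0.02) and -0.04 (-0.22 to 0.10). A1G metastatic tumours gave 2150 (1031 to 2224; 1031 without A1G metastatic replicate 2 and 1292 without A1G metastatic replicate 4) and 17 of the 45 (7 to 18), with medians of 0.41 for class I (0.13 to 0.52) and 1.25 for class II (1.05 to 1.49). The class I median was 0.071 with no filter. In that comparison 11 were called with the brightest probe per gene and 10 with the mean per gene, and 1280 probes in all with the 2 groups alone. With metastatic replicates 1 and 4 only, 733 and 5 were called, with a class I median of 0.17 and a class II median of 1.24. The cause of these moves was not tested, beyond the fewer probes or arrays that each setting leaves.

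Corrections that need per-array detection values (neqc) and the slide as a block were not run, as those columns match no sample. Their header shows 2 chips of 6 arrays without placing samples on them, so how far chip and group overlap is not known and could not be checked. Probes near the median level give little resolution: 37 of the 82 probes were too dim to test, and for H2-Q8 and Tap1 in Ptch1het tumours just a bound is given.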
